A study of Mus musculus with 8 samples.

Results

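The genes examined here encode plasma membrane and lysosomal carriers of amino acids, small peptides and monocarboxylates. They were measured in IMCD cells, a mouse line named for the inner medullary collecting duct of the kidney. They were taken from the raw count table as all rows whose symbol belongs to the solute carrier families Slc1, Slc3, Slc6, Slc7, Slc15, Slc16, Slc36, Slc38 or Slc43. Of 49 such rows, the 4 for Slc6a6, Slc6a12, Slc38a2 and Slc7a11 were set aside. This left 45 of the 15288 genes in the table, from 9 families. Cells grown in high-glucose, pyruvate-containing DMEM with serum were moved to serum-free DMEM for 12 h. The medium was used as such (control, replicates 1 to 4) or with 100 mmol NaCl, an amount the labels give without a volume (NaCl, replicates 5 to 8). Each group had 4 bulk RNA libraries, and both groups shared the serum-free medium. The labels do not say whether the libraries came from separate cultures, so the p-values measure the spread between these libraries, which may be technical.

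Cells use these families in different ways. Slc1, Slc6 and much of Slc38 carry amino acids inward with sodium, so the sodium gradient loads the cell with them. Slc7 light chains pair with a heavy chain, Slc3a1 or Slc3a2, and mostly exchange an internal for an external amino acid, while the cationic Slc7 carriers work alone. Slc16 members move lactate, pyruvate, creatine or aromatic amino acids. Slc15 members and the best-known Slc36 carrier couple peptides or amino acids to protons, several of them on lysosomes. Medullary cells in hypertonic fluid are known to raise their content of small organic solutes, amino acids among them.

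Total counts were 41.8 to 47.6 M in the controls and 35.3 to 42.4 M in the NaCl libraries. Markers of the collecting duct were partly low. Of 18 such genes, 16 were in the table and 10 had at least 10 counts in every library. Aqp2 was at 0.0241 CPM (counts scaled to library size) in the controls and 0.305 CPM with NaCl, and Cdh1 at 0.195 and 0.535 CPM. Elf5 and Cldn7 were not in the table. Of the duct markers, 4 were called higher (Cldn4, Slc14a2, Avpr2 and Cdh1) and 3 lower (Tfcp2l1, Gata3 and Scnn1g). Cldn4 was at 44.0 and 77.3 CPM and Tfcp2l1 at 130.4 and 101 CPM. All listed markers of the duct summed to 485 to 616 CPM in the controls and 498 to 579 CPM with NaCl. Krt18 and Krt8 were at 217 and 109 CPM in the controls. The fibroblast marker Col1a1 was high, at 2492 CPM in the controls and 2148 CPM with NaCl, and was called lower. Col1a2, at 434 and 406 CPM, and Col3a1, at 381 and 459 CPM, were also above the keratin genes and were not called, nor was Dcn at 15.8 and 14.9 CPM. Pdgfra was called lower, at 2.38 and 1.5 CPM, and Pdgfrb higher, at 37.5 and 61.1 CPM. The 6 fibroblast genes in the table summed to 3128 to 3635 CPM in the controls and 2819.8 to 3254 CPM with NaCl. The 3 proximal tubule markers in the table summed to 162 to 205 CPM in the controls and 155 to 177 CPM with NaCl, mostly from Lrp2 at 185 and 162 CPM. Endothelial markers summed to at most 0.870 CPM in any library, and none of the 4 intercalated cell markers was in the table.

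With NaCl, Slc15a3, a lysosomal histidine and peptide carrier gene, rose from a trace level by 16.5-fold. Slc16a5, which encodes the carrier MCT6, rose 2.78-fold at a low level. Slc1a3 (glutamate and aspartate), Slc6a9 (glycine) and the light chain gene Slc7a6 rose 1.49- to 1.64-fold. The lactate carrier gene Slc16a1 and the glutamine carrier gene Slc1a5 fell, and Slc7a12, Slc16a6, Slc38a4 and Slc43a2 fell more than 2-fold. No family with 3 or more tested genes moved as a whole.

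Of the 45 carrier genes, 41 passed the filter on low counts and were tested. The remaining 4, among them Slc1a2, Slc6a18 and Slc43a1, did not, with at most 13 counts in any library. In the test of NaCl against control, 23 of the 41 genes were called at an edgeR adjusted p-value under 0.05, 11 higher and 12 lower. Over all tested genes 16.9% were called higher and 17.2% lower. The 23 were 56.1% of the tested carriers, and over all 14024 tested genes 34.1% were called. A change of at least 1.5-fold was called in 9 carriers (22.0%), 4 higher and 5 lower, where 7.02% of all tested genes had one. The groups did not overlap for 19 carriers (46.3%), all of them called, against 33.4% of all tested genes. The middle of both distributions was close to 0. The tested carriers had a median log2 fold change of -0.072 and all tested genes one of 0.0029. The calls were divided almost evenly between the directions. Of the 41 genes, 36 reached the count cutoff in both groups. Slc7a8, Slc7a12, Slc15a2 and Slc16a6 reached it through the controls and Slc6a19 through the NaCl libraries, so the counts over the tested genes are descriptions.

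**Figure D1:**
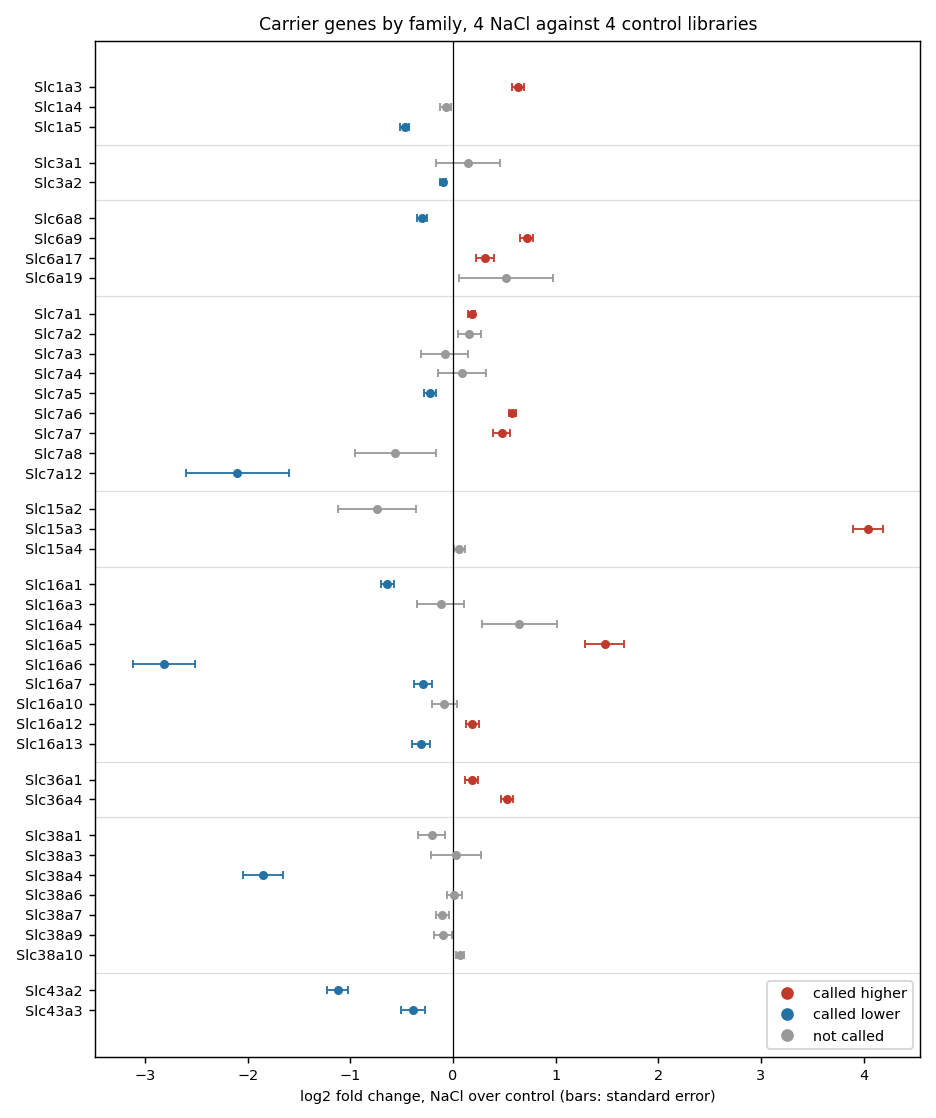
Log2 fold change of NaCl over control (x axis) for the 41 tested carrier genes, ordered by family (y axis). Points are edgeR estimates from 4 libraries per group, bars are standard errors, red points were called higher, blue points lower and grey points were not called. Slc15a3 lies at 4.05 and Slc16a6 at -2.82, and every family of 3 or more tested genes has points on both sides of 0.

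The libraries are numbered 1 to 4 in the controls and 5 to 8 with NaCl, and the meaning of the number is not given. When the number entered the fit as a linear drift over all 8 libraries, 16 of the 23 carriers kept their call and direction. These 16 were the only carriers called in that fit, 39.0% of the 41 tested, and 24.1% of all tested genes were called in it. All 9 carriers with a change of at least 1.5-fold were among the 16. Their log2 fold changes were then 3.68 for Slc15a3, 1.47 for Slc16a5, 1.01 for Slc6a9, 0.41 for Slc1a3, -0.36 for Slc16a1, -1.33 for Slc43a2, -1.86 for Slc38a4, -2.82 for Slc16a6 and -4.59 for Slc7a12. Calls were lost for Slc3a2, Slc7a1, Slc7a5, Slc7a7, Slc16a7, Slc16a12 and Slc43a3. With the numbers centred per group as a covariate, all 23 calls were kept, those of these 7 genes with adjusted p-values of 4.84e-07 (Slc7a5) to 0.00615 (Slc3a2). A number centred within each group cannot take up a difference between the groups, so that fit does not test a drift across them. The number and the group are tied in this design, so part of a group difference can be taken up by the linear drift. Among the markers, the calls of Avpr2, Cdh1, Gata3, Col1a1 and Pdgfra were lost with the drift. Krt8 (-0.57), Krt18 (-0.53), Epcam (-0.32), Csf1r (-0.95) and the proximal tubule marker Lrp2 (-0.55) were then called lower, and Hsd11b2 (2.35) higher. Of the thick limb and distal tubule markers, Cldn16 (-2.67) was then called lower and Slc12a1 (2.09) higher. Cdh1 kept its call in 12 of the 17 alternatives that gave it a value.

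Among the families, both tested Slc36 genes were called higher and both tested Slc43 genes lower. In Slc6, 2 of 4 genes were called higher and 1 lower, and in Slc1 the split was 1 and 1 of 3. Slc7 had 3 genes called higher and 2 lower of 9. Slc16 had 2 higher and 4 lower of 9. In Slc15, 1 of 3 genes was called higher, in Slc3, 1 of 2 was called lower, and in Slc38, 1 of 7 was called lower. The median log2 fold change was 0.41 in Slc6, 0.35 in Slc36, 0.089 in Slc7, 0.06 in Slc15, 0.025 in Slc3, -0.072 in Slc1, -0.099 in Slc38, -0.12 in Slc16 and -0.76 in Slc43. These medians rest on few genes. The Slc6 median was 0.25 without control replicate 1, the Slc16 median -0.23 without NaCl replicate 7 and the Slc38 median -0.018 without control replicate 4. The Slc7 median was 0.0089 without NaCl replicate 7. Both Slc3 genes had negative log2 fold changes without control replicate 2 and again without NaCl replicate 7. With at least 10 counts asked of every library, which leaves fewer genes, the Slc15 median was 2.05. A family median also hides opposite members. Slc15 and Slc38 had medians near 0 although each held a gene that changed by more than 3-fold.

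Levels were compared between genes as CPM per kilobase of merged exons. The summed level of the tested Slc7 genes was 80.3 ± 3.30 in the controls and 88.4 ± 2.0 with NaCl (mean ± SD, n = 4 each). For Slc16 the sums were 69.1 ± 3.0 in the controls and 63.8 ± 7.91 with NaCl, and for the 2 Slc3 genes 54.3 ± 1.40 in the controls and 50.9 ± 0.612 with NaCl. Slc38 was at 45.6 ± 1.26 in the controls and 45.5 ± 0.725 with NaCl, so its sum moved by less than the replicate spread. Slc1 was at 28.1 ± 0.890 in the controls and 24.5 ± 0.541 with NaCl, Slc6 at 23.3 ± 1.19 in the controls and 25.5 ± 1.07 with NaCl, Slc36 at 8.05 ± 0.109 in the controls and 10.5 ± 0.457 with NaCl, Slc15 at 5.95 ± 0.161 in the controls and 8.58 ± 0.388 with NaCl and Slc43 at 3.94 ± 0.299 in the controls and 2.47 ± 0.356 with NaCl. A single gene set most of the sum in several families. Slc3a2 held 99.4% of the Slc3 level in the controls and 99.2% with NaCl, and Slc38a10 held 70.6% and 74.0% of Slc38. Slc15a4 held 96.2% of the Slc15 level in the controls and 69.5% with NaCl. In bulk libraries, fewer cells that express a gene and less RNA of it per cell cannot be told apart.

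**Figure D2:**
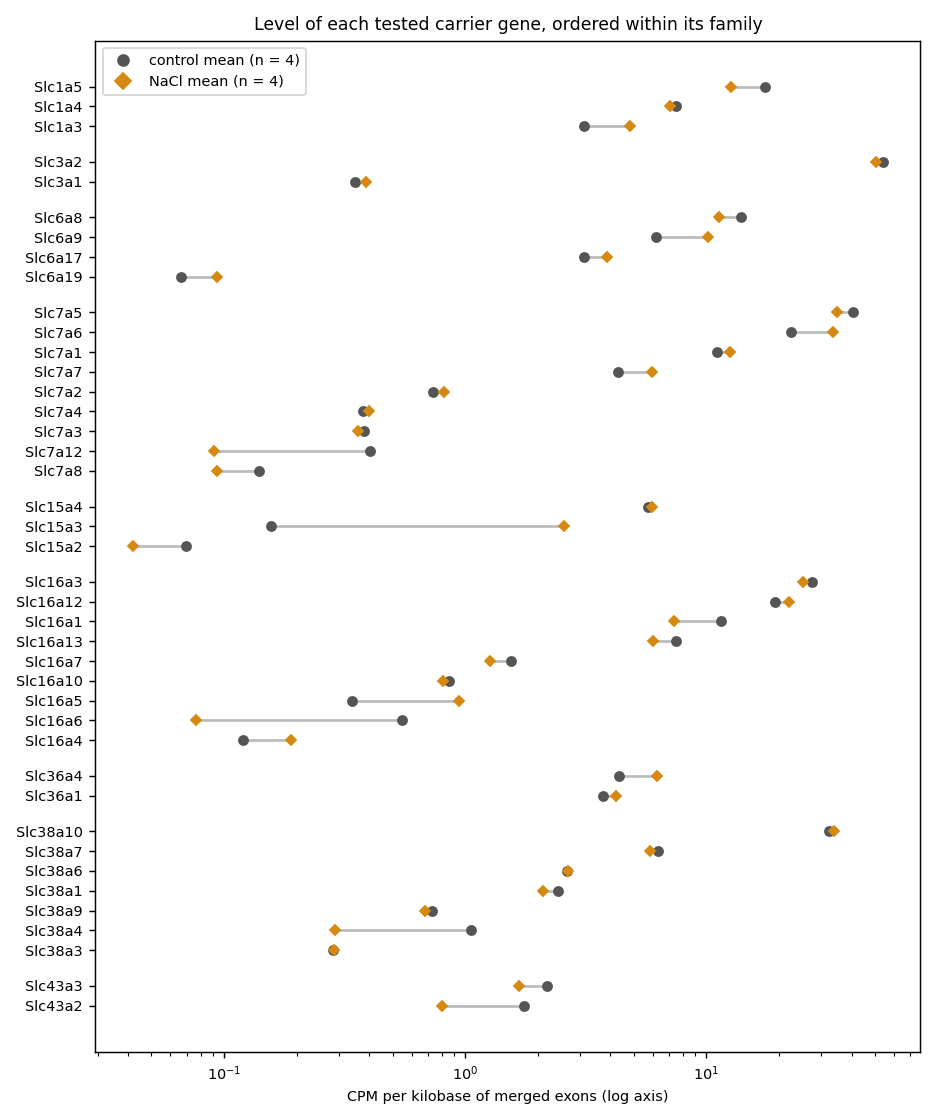
Level of the 41 tested carrier genes in CPM per kilobase of merged exons (log x axis), ordered within each family by mean level (y axis). Circles are control means and diamonds are NaCl means of 4 libraries. Slc3a2, at 54.0 in the controls and 50.5 with NaCl, is the most abundant, and Slc15a3 has the widest gap, from 0.156 to 2.57.

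Among the peptide and histidine carriers, Slc15a3 rose from a trace to a clearly measured level. Slc15a3 (ENSMUSG00000024737, GRCm38 chr19:10839727-10859362, plus strand) encodes a proton-coupled histidine and dipeptide carrier of lysosomes and endosomes. It had 0.713, 0.925, 1.04 and 0.757 CPM in control replicates 1 to 4 and 12.2, 15, 13.4 and 16 CPM in NaCl replicates 5 to 8. The lowest NaCl library was far above the highest control. The fitted change was 16.5-fold, with a log2 fold change that edgeR put at 4.05 (SE 0.14, adjusted p = 2.28e-12). Annotated exons of Tmem132a on the opposite strand cover 28.1% of the merged exons of Slc15a3, and the strand setting of the counting is not given in the sources used here. Tmem132a itself had 174, 170., 178 and 166 CPM in the controls and 237, 244, 242 and 228 CPM in the NaCl libraries (log2 fold change 0.47, SE 0.035, edgeR adjusted p = 2.75e-08). Reads of the pair could not be told apart in the shared stretch if strand was ignored. Slc15a3 is also known from macrophages and dendritic cells. Of the 3 immune markers in the table, Csf1r and Cd68 were not called (log2 fold changes -0.051 and -0.51). Ptprc rose from 4.05 ± 0.346 to 13.5 ± 0.434 CPM (SD, n = 4 each, log2 fold change 1.73, SE 0.094, edgeR adjusted p = 5.91e-10). These 3 markers summed to 13.0 to 17.9 CPM in the controls and 21.3 to 26.1 CPM with NaCl, and their part in the Slc15a3 result was not tested.

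The other Slc15 genes were not called. Slc15a4, a closely related lysosomal carrier, had 30.0, 31.4, 30.7 and 29.5 CPM in the controls and 30.5, 31.4, 33.3 and 31.6 CPM in the NaCl libraries, a log2 fold change that edgeR put at 0.06 (SE 0.052, adjusted p = 0.406). Its level in the controls, 5.72 CPM per kilobase, was far above that of Slc15a3 at 0.156. With NaCl the values were 5.96 and 2.57. Slc15a2, which encodes the high-affinity peptide carrier PEPT2 of the apical kidney membrane, was at 0.214 to 0.686 CPM in the 8 libraries, with a log2 fold change that edgeR put at -0.74 (SE 0.38, adjusted p = 0.148).

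The monocarboxylate carriers split by member. Slc16a1 encodes MCT1, a proton-linked carrier of lactate and pyruvate. It fell from 55.4, 54.0, 48.1 and 45.2 CPM in control replicates 1 to 4 to 33.1, 32.9, 33.0 and 31.2 CPM in NaCl replicates 5 to 8. The groups did not overlap, and the NaCl libraries lay closer together than the controls (log2 fold change -0.64, SE 0.062, edgeR adjusted p = 6.20e-07). Slc16a7, the related carrier MCT2, also fell, with 18.5, 18.8, 17.5 and 18.5 CPM in the controls and 17.9, 14.8, 13.0 and 14.2 CPM in the NaCl libraries (log2 fold change -0.30, SE 0.087, edgeR adjusted p = 0.0141). NaCl replicate 5 lay among its controls, and the adjusted p-value was 0.0557 without NaCl replicate 7 and 0.857 with the linear drift.

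Slc16a3 encodes MCT4, a lactate exporter of glycolytic cells, and was the most abundant gene of its family at 27.5 CPM per kilobase in the controls. It had 133, 149, 147 and 156 CPM in the controls and 78.6, 137, 166 and 155 CPM in the NaCl libraries. NaCl replicate 5 was the lowest of the 8 libraries, and the other NaCl libraries lay within or above the control range. The gene was not called (log2 fold change -0.12, SE 0.23, edgeR adjusted p = 0.738), and the log2 fold change was 0.065 without NaCl replicate 5 (adjusted p = 0.50). That library was also the lowest for Ldha, the lactate dehydrogenase A gene, at 1614 CPM against 2179 to 2807 CPM in the other NaCl libraries. For Bsg, which encodes basigin, the protein that brings MCT1 and MCT4 to the cell surface, it held 978 CPM against 1297 to 1734 CPM in the other NaCl libraries. Neither gene was called (edgeR adjusted p = 0.929 for Ldha and 0.498 for Bsg). With the linear drift both were called lower, Ldha at -0.83 on the log2 scale (adjusted p = 0.0196) and Bsg at -1.22 (adjusted p = 0.00319), while Slc16a3 stood at -0.87 (adjusted p = 0.198). With the numbers centred, Bsg was called lower as well (-0.24, adjusted p = 0.0471). The part of that library's make-up in the Slc16a3 values was not tested.

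Slc16a6 and Slc16a5 changed most within the family, in opposite directions and at low levels. Slc16a6 (ENSMUSG00000041920, chr11:109450855-109473598, minus strand), which encodes MCT7, linked to the transport of ketone bodies and taurine, had 2.18, 2.61, 3.43 and 2.51 CPM in control replicates 1 to 4 and 0.335, 0.662, 0.218 and 0.286 CPM in NaCl replicates 5 to 8. These were 104 to 142 counts per library in the controls and 9 to 28 counts with NaCl. The highest NaCl library stayed below every control, and the gene fell by 7.06-fold (log2 fold change -2.82, SE 0.30, edgeR adjusted p = 1.98e-06). Exons of Amz2 on the opposite strand cover 21.5% of its merged exons, and Amz2 was at 44.5 ± 1.91 and 44.9 ± 1.96 CPM (SD, n = 4 each, log2 fold change 0.011, SE 0.049, edgeR adjusted p = 0.890). Slc16a5 (ENSMUSG00000045775, chr11:115462474-115474398, plus strand), which encodes the carrier MCT6, had 1.05, 1.30, 1.06 and 1.61 CPM in the controls and 4.02, 3.33, 3.68 and 2.95 CPM in the NaCl libraries. It rose 2.78-fold without overlap of the groups (log2 fold change 1.48, SE 0.19, edgeR adjusted p = 1.43e-05).

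Slc16a13, which encodes a lactate carrier of this family, fell, with 18.2, 17.5, 20.7 and 21.5 CPM in the controls and 13.9, 15.5, 15.1 and 18.2 CPM in the NaCl libraries (log2 fold change -0.31, SE 0.090, edgeR adjusted p = 0.0133). Its highest NaCl library lay within the control range. Slc16a12, which encodes a creatine carrier, was next to Slc16a3 in abundance, at 19.3 CPM per kilobase in the controls. It had 74.7, 77.3, 78.5 and 91.0 CPM in the controls and 90.2, 84.7, 90.1 and 101 CPM in the NaCl libraries, and its adjusted p-value was the highest among the called carriers (log2 fold change 0.19, SE 0.064, edgeR adjusted p = 0.0405). The call ended in 6 of the 8 fits that left out a library (control replicates 1, 2 and 3 and NaCl replicates 5, 7 and 8), with adjusted p-values of 0.0674 to 0.116. With the linear drift the sign turned (-0.10). Slc16a10, an aromatic amino acid carrier, and Slc16a4 were not called, with log2 fold changes of -0.084 (SE 0.12) and 0.65 (SE 0.37).

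**Figure D3:**
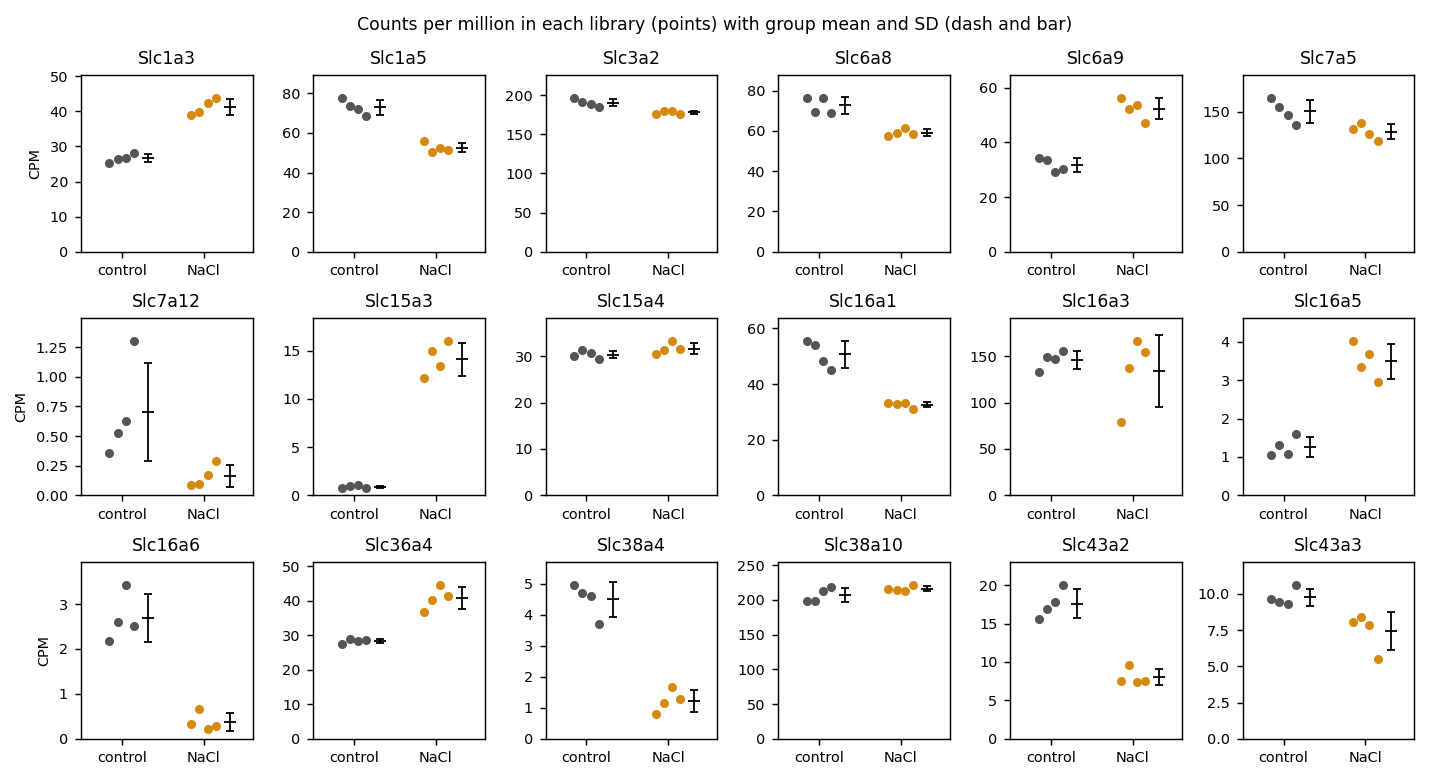
CPM in each library for 18 carrier genes (linear y axes from 0), with controls in grey and NaCl libraries in orange, in the order of the replicate numbers. The dash and bar beside each group are its mean and SD (n = 4). For Slc15a3 the NaCl libraries hold 12.2 to 16 CPM against at most 1.04 CPM in the controls, while for Slc16a3 a single NaCl library, replicate 5, is low.

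The heavy chain Slc3a2 and its light chains were examined together, since the heterodimer is the working carrier. Slc3a2 encodes 4F2hc (CD98) and had 197, 191, 189 and 185 CPM in the controls and 176, 180., 180. and 176 CPM in the NaCl libraries. The groups did not overlap, but the difference was small (log2 fold change -0.097, SE 0.032, edgeR adjusted p = 0.0276). The call was lost with library totals as the only scaling (adjusted p = 0.0639). It was also lost without control replicate 1 or 2 or without NaCl replicate 5 or 8, with adjusted p-values of 0.0506 to 0.0690, and with the linear drift (0.681).

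The light chains moved in different directions around this nearly level heavy chain. Slc7a5 encodes LAT1, which imports leucine and other large neutral amino acids. It had 165, 155, 147 and 136 CPM in the controls and 132, 138, 126 and 119 CPM in the NaCl libraries, a modest fall (log2 fold change -0.23, SE 0.059, edgeR adjusted p = 0.00932) in which the highest NaCl library exceeded the lowest control. With the linear drift its log2 fold change was 0.078 (adjusted p = 0.441), the opposite sign. Slc7a6 encodes y+LAT2, which exchanges cationic for neutral amino acids and is known for releasing arginine or glutamine. It rose from 103, 105, 101 and 99.6 CPM to 155, 156, 149 and 151 CPM, with narrow groups far apart (log2 fold change 0.58, SE 0.034, edgeR adjusted p = 1.44e-09). Slc7a7, the closely related y+LAT1, also rose, with 13.1, 13.0, 15.3 and 15.6 CPM in the controls and 19.4, 18.1, 20.2 and 21.5 CPM in the NaCl libraries (log2 fold change 0.47, SE 0.082, edgeR adjusted p = 2.68e-04), although its call was lost with the linear drift (0.491). Slc7a8, the light chain LAT2 of kidney epithelia, was at 0.195 to 1.09 CPM and was not called (log2 fold change -0.56, SE 0.40, edgeR adjusted p = 0.298).

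The balance between the main light chains shifted accordingly. Per kilobase, the ratio of Slc7a6 to Slc7a5 was 0.508, 0.551, 0.557 and 0.595 in control replicates 1 to 4. It was 0.953, 0.918, 0.955 and 1.03 in NaCl replicates 5 to 8. Slc7a6 was thus near the level of Slc7a5 in the NaCl libraries and clearly below it in the controls. Slc3a1, which encodes the heavy chain rBAT of the cystine carrier in the proximal tubule, was at 0.474 to 1.16 CPM and was not called (log2 fold change 0.15, SE 0.31, edgeR adjusted p = 0.757).

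**Figure D4:**
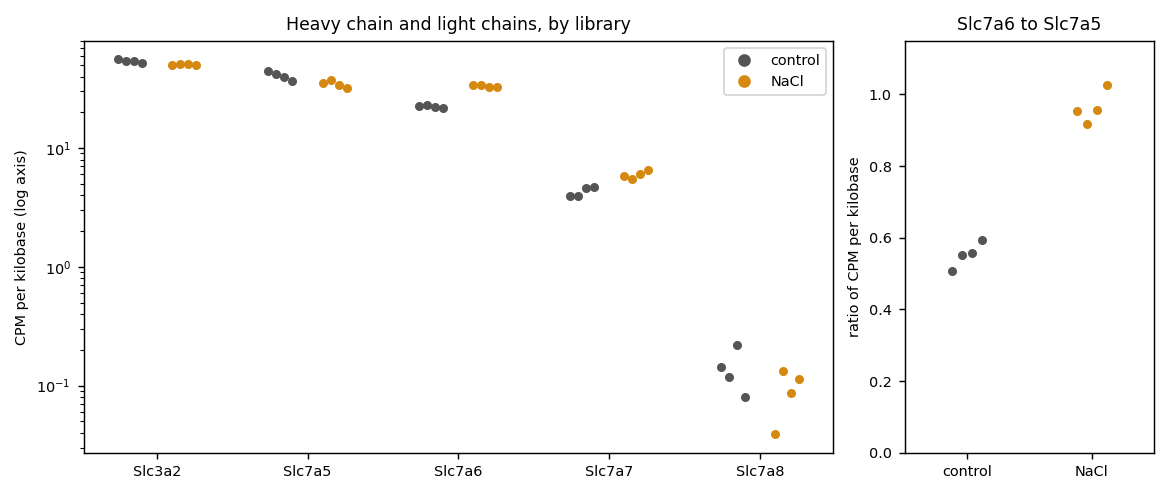
Left, level of the heavy chain gene Slc3a2 and of 4 light chain genes in each library, in CPM per kilobase (log y axis), with controls in grey and NaCl libraries in orange. Right, ratio of Slc7a6 to Slc7a5 in each library (linear y axis from 0), which is 0.508 to 0.595 in the controls and 0.918 to 1.03 with NaCl.

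Of the cationic amino acid carriers of Slc7, the main one was called. Slc7a1 encodes CAT1, the main importer of arginine and lysine in many cells. It rose slightly, with 132, 126, 126 and 126 CPM in the controls and 141, 139, 148 and 150. CPM in the NaCl libraries (log2 fold change 0.18, SE 0.036, edgeR adjusted p = 8.75e-04), and lost the call with the linear drift (adjusted p = 0.103). Slc7a2 and Slc7a3 encode CAT2 and CAT3 and were not called, with log2 fold changes of 0.16 (SE 0.11) and -0.082 (SE 0.23). The same held for Slc7a4, whose function is poorly known (0.089, SE 0.23). Slc7a12, which encodes the neutral amino acid carrier Asc-2 of rodent kidney, fell from a low level. It had 17, 22, 26 and 55 counts in the controls and 3, 4, 7 and 12 counts in the NaCl libraries, a log2 fold change that edgeR put at -2.10 (SE 0.50, adjusted p = 0.00385). Its groups did not overlap, and the log2 fold change was -1.62 without control replicate 4, the highest library.

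The sodium-coupled Slc1 genes moved in opposite directions. Slc1a5 encodes ASCT2, which takes up glutamine and other neutral amino acids in exchange for others, and was the most abundant of the family at 17.5 CPM per kilobase in the controls. It fell from 77.8, 73.5, 71.9 and 68.6 CPM to 55.9, 50.4, 52.4 and 51.5 CPM (log2 fold change -0.47, SE 0.048, edgeR adjusted p = 1.03e-06). Slc1a3, which encodes the glutamate and aspartate importer EAAT1, rose from 25.2, 26.4, 26.7 and 28.1 CPM to 39.0, 39.8, 42.5 and 43.9 CPM (log2 fold change 0.63, SE 0.056, edgeR adjusted p = 2.05e-07). Neither gene had overlapping groups. Slc1a4, the serine and alanine exchanger ASCT1, was not called, with 29.8, 29.5, 28.7 and 29.0 CPM in the controls and 27.0, 27.4, 28.1 and 28.8 CPM in the NaCl libraries (log2 fold change -0.072, SE 0.052, edgeR adjusted p = 0.310).

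In Slc6, the family of sodium- and chloride-dependent carriers, the glycine carrier rose and the creatine carrier fell. Slc6a9 encodes GlyT1 and had 34.1, 33.7, 29.0 and 30.3 CPM in the controls and 56.4, 52.4, 53.6 and 46.9 CPM in the NaCl libraries, a rise of 1.64-fold (log2 fold change 0.72, SE 0.064, edgeR adjusted p = 3.16e-07). Ccdc24 exons on the opposite strand cover 27.8% of its merged exons, and Ccdc24 was at 0.391 and 0.345 CPM. Slc6a8, which encodes the creatine importer, had 76.4, 69.4, 76.6 and 69.1 CPM in the controls and 57.5, 58.8, 61.5 and 58.4 CPM in the NaCl libraries and fell without overlap (log2 fold change -0.30, SE 0.046, edgeR adjusted p = 8.18e-05). Slc6a17, which encodes a vesicular carrier of neutral amino acids known from neurons, rose, with 34.9, 34.2, 32.2 and 26.7 CPM in the controls and 38.6, 44.9, 39.7 and 35.7 CPM in the NaCl libraries (log2 fold change 0.31, SE 0.086, edgeR adjusted p = 0.0133). Slc6a19, the neutral amino acid carrier B0AT1 of the proximal tubule, was at 0.0629 to 0.591 CPM and was not called (log2 fold change 0.52, SE 0.46, edgeR adjusted p = 0.420).

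The Slc38 family of sodium-coupled neutral amino acid carriers held 1 called gene among 7 tested, Slc38a4. Slc38a4 (ENSMUSG00000022464, chr15:96994820-97055956, minus strand) encodes SNAT4, a carrier of alanine and other small neutral amino acids. It had 4.97, 4.69, 4.62 and 3.69 CPM in control replicates 1 to 4 and 0.809, 1.16, 1.67 and 1.29 CPM in NaCl replicates 5 to 8. The highest NaCl library was below the lowest control, and the gene fell 3.62-fold (log2 fold change -1.86, SE 0.19, edgeR adjusted p = 1.58e-06). Slc38a10, the most abundant member, was at 206 ± 10.2 CPM in the controls and 216 ± 3.90 CPM with NaCl (SD, n = 4 each, log2 fold change 0.067, SE 0.037, edgeR adjusted p = 0.182). Slc38a1 encodes the glutamine importer SNAT1 and ranged from 33.7 to 51.5 CPM in the controls and from 30.7 to 39.5 CPM with NaCl (log2 fold change -0.21, SE 0.13, edgeR adjusted p = 0.267). The control libraries were more spread than the NaCl libraries. With the numbers centred per group as a covariate it was called lower (-0.20, adjusted p = 0.0168), and with the linear drift the sign turned (0.36, adjusted p = 0.0536). Slc38a7, a lysosomal glutamine exporter, and Slc38a9, the lysosomal arginine carrier that signals to mTORC1, were not called, with log2 fold changes of -0.11 (SE 0.064) and -0.099 (SE 0.091). Slc38a3 and Slc38a6 had log2 fold changes of 0.026 (SE 0.25) and 0.013 (SE 0.069). Of the main coding transcript of Slc38a6, 19.0% is shared with other annotated genes, so its counts are uncertain.

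Slc36 was a family whose tested members both rose. Slc36a4, which encodes the amino acid carrier PAT4, had 27.6, 28.8, 28.2 and 28.6 CPM in the controls and 36.8, 40.3, 44.6 and 41.3 CPM in the NaCl libraries (log2 fold change 0.53, SE 0.058, edgeR adjusted p = 2.99e-06). Slc36a1 encodes PAT1, which exports amino acids from lysosomes. It had 21.6, 21.3, 20.7 and 20.1 CPM in the controls and 25.0, 23.6, 24.1 and 22.2 CPM in the NaCl libraries, a smaller rise (log2 fold change 0.18, SE 0.060, edgeR adjusted p = 0.0291). Neither gene had overlapping groups. The Slc36a1 call was lost in 6 of the 8 fits that left out a library (control replicates 2, 3 and 4 and NaCl replicates 5, 6 and 7), with adjusted p-values of 0.0506 to 0.0809.

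Slc43, by contrast, fell in both tested members. Slc43a2 (ENSMUSG00000038178, chr11:75531694-75577575, plus strand), which encodes LAT4, a carrier that lets branched-chain amino acids, phenylalanine and methionine leave epithelial cells, had 15.5, 16.9, 17.8 and 20.1 CPM in control replicates 1 to 4 and 7.50, 9.65, 7.42 and 7.57 CPM in NaCl replicates 5 to 8. The gene fell 2.18-fold, and the groups were well apart (log2 fold change -1.13, SE 0.10, edgeR adjusted p = 2.94e-07). Slc43a3, which encodes a purine base carrier, had 9.68, 9.46, 9.33 and 10.6 CPM in the controls and 8.03, 8.44, 7.85 and 5.53 CPM in the NaCl libraries (log2 fold change -0.39, SE 0.12, edgeR adjusted p = 0.0168). Its call was lost with the linear drift (adjusted p = 0.605). Opposite-strand exons of other genes cover 9.18% of the merged exons of Slc43a2, 26.5% of Slc3a1, 13.3% of Slc7a4, 7.0% of Slc7a7 and 5.72% of Slc38a10, with the same limit as for Slc15a3.

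Promoter windows from 250 bases before to 50 bases after each start site were taken from RefSeq (GRCm38.p6). By symbol, 28 of the 45 carriers matched, with 40 windows in all, and 17 did not, among them Slc15a3, Slc16a5 and Slc16a6. These windows were searched on both strands for the TonE consensus, the element bound by Nfat5, and for TGATGNAA, a form of the element bound by Atf4. The palindrome CACGTG, bound by Tfeb and other factors, was also searched. The TonE consensus was in 3 carrier windows (7.5%; Slc6a17, Slc38a4 and Slc38a6), and 4.96% of all 32851 windows held it. TGATGNAA was in 3 carrier windows (7.5%; 1 of Slc1a4 and 2 of Slc7a7, which overlap and share a match), against 3.97% of all windows. CACGTG was in 5 carrier windows (12.5%; Slc16a1, Slc16a12, Slc36a1, Slc38a7 and Slc43a1), against 7.15%. The windows of 4 called carriers are shown with the matches in capitals, because for TonE and for CACGTG they set a carrier that fell beside one that rose. Slc38a4 fell and held 3 TonE matches, 2 of them overlapping on opposite strands. Slc6a17 rose and held 1, in a window that lies inside the annotated gene (chr3:107467543-107518018, minus strand) and not at its 5′ end. Slc36a1 rose and held CACGTG in 2 places, and Slc16a1 fell and held it once. Slc7a7, which rose, held TGATGNAA, and Slc16a12, which was called higher, held CACGTG. Their windows are not shown. The windows are chr15:97055907-97056206 on the minus strand for Slc38a4, chr3:107500691-107500990 on the minus strand for Slc6a17, chr11:55204090-55204389 on the plus strand for Slc36a1 and chr3:104638414-104638713 on the plus strand for Slc16a1, written 5′ to 3′.
Slc38a4: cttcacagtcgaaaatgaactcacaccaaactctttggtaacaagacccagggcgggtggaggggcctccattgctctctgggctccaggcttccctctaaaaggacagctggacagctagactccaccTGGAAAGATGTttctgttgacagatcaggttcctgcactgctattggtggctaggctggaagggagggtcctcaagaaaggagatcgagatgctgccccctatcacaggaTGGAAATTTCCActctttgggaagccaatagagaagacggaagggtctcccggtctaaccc
Slc6a17: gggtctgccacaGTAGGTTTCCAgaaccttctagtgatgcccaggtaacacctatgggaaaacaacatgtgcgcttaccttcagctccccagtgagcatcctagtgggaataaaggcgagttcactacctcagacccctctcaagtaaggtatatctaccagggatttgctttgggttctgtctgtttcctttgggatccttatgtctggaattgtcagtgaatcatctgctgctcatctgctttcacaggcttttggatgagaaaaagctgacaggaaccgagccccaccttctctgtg
Slc36a1: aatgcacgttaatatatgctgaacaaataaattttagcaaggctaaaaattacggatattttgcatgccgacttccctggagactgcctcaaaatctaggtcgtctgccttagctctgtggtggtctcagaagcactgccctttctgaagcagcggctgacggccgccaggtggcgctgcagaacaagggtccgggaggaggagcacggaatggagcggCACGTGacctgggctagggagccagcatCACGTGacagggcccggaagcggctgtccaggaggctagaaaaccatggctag
Slc16a1: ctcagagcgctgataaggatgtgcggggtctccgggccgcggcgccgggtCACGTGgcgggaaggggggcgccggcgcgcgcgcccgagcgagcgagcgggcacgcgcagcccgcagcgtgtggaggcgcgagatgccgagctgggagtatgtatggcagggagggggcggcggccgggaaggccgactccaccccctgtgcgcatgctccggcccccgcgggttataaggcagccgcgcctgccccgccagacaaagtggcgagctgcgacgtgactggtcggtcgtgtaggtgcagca

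Genes that work with the carriers were counted from 3 lists chosen for their role. Beyond the called gene with the highest and the one with the lowest log2 fold change of each list, the genes named here and Bsg and Ldha above were chosen after their values were seen. Of 8 tested partner and trafficking genes, 1 was called higher and 1 lower, or 25.0% in all, under the 34.1% of all tested genes. Emb, which encodes embigin, the partner of MCT2 and an alternative partner of MCT1, rose slightly, with overlapping groups of 18.1, 16.7, 14.8 and 16.9 CPM in the controls and 22.5, 19.4, 19.5 and 17.9 CPM in the NaCl libraries (log2 fold change 0.25, SE 0.082, edgeR adjusted p = 0.0251). The Emb call was lost without control replicate 2 or 3 or NaCl replicate 5, with adjusted p-values of 0.0541 to 0.0922. Arl6ip5, whose product binds and restrains the glutamate carrier EAAC1, fell, with 97.9, 96.1, 101 and 100. CPM in the controls and 72.8, 74.3, 80.7 and 77.5 CPM in the NaCl libraries (log2 fold change -0.37, SE 0.040, edgeR adjusted p = 2.10e-06). The integrin gene Itgb1, whose product binds CD98, was at 1641 ± 30.2 and 1629 ± 34.1 CPM (SD, n = 4 each, log2 fold change -0.01, SE 0.031, edgeR adjusted p = 0.833).

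Among 33 tested genes of lysosomal amino acid sensing, which links these carriers to mTORC1, 8 were called higher and 5 lower. These 39.4% were near the 34.1% called over all tested genes. Their median log2 fold change stood at 0.066. Sesn1, which encodes a sestrin, rose most (log2 fold change 0.38, SE 0.064, edgeR adjusted p = 2.47e-04). It had 21.3, 20.6, 21.6 and 22.9 CPM in the controls and 29.7, 28.3, 28.8 and 25.2 CPM in the NaCl libraries. Sesn2, another sestrin gene, fell (log2 fold change -0.35, SE 0.053, edgeR adjusted p = 6.87e-05). Its values were 54.9, 55.8, 52.2 and 55.6 CPM in the controls and 40.4, 40.0, 46.2 and 44.6 CPM in the NaCl libraries. Rragd, which encodes a Rag GTPase, fell most, with 6.25, 6.61, 5.92 and 6.72 CPM in the controls and 2.43, 3.33, 3.51 and 3.45 CPM in the NaCl libraries (log2 fold change -1.0, SE 0.13, edgeR adjusted p = 1.91e-05). Mtor was not called (log2 fold change 0.076, SE 0.035, edgeR adjusted p = 0.109).

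Of 23 tested genes of amino acid and lactate metabolism, 5 were called higher and 6 lower, or 47.8% in all, against 34.1% of all tested genes. Their median log2 fold change stood at -0.028. Glul, which encodes glutamine synthetase, fell most, with 65.8, 69.1, 66.0 and 69.8 CPM in the controls and 43.1, 41.1, 42.7 and 41.5 CPM in the NaCl libraries (log2 fold change -0.69, SE 0.042, edgeR adjusted p = 2.76e-09). Glud1, which encodes the enzyme that turns glutamate to 2-oxoglutarate, rose (log2 fold change 0.30, edgeR adjusted p = 5.25e-06). Asns, the asparagine synthetase gene, had 123, 125, 108 and 108 CPM in the controls and 82.3, 81.7, 81.7 and 71.6 CPM in the NaCl libraries and fell without overlap (log2 fold change -0.55, SE 0.059, edgeR adjusted p = 9.24e-06). Gclc, which encodes the catalytic subunit of the first enzyme of glutathione synthesis, fell as well (log2 fold change -0.55, SE 0.043, edgeR adjusted p = 4.84e-08). Ldhd, which encodes a D-lactate dehydrogenase, rose most of this list, with 4.05, 5.43, 5.68 and 5.42 CPM in the controls and 6.0, 6.72, 8.26 and 6.93 CPM in the NaCl libraries (log2 fold change 0.44, SE 0.13, edgeR adjusted p = 0.0147). The Ldhd call was lost with the linear drift (adjusted p = 0.997) and without NaCl replicate 7 (0.0664). Ldha and Ldhb were not called, with log2 fold changes of -0.028 (SE 0.19) and -0.048 (SE 0.075). With the linear drift Ldhb, like Ldha, was called lower (-0.39, adjusted p = 2.65e-05).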

How the data were processed

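RNA of 8 libraries of IMCD cells was analysed, 4 control and 4 NaCl. The deposited table of the authors held raw counts per Ensembl gene. A second table of the authors held a signal, the count divided by 1 factor per library, found to be constant over genes. Per the submitters' processing notes, Trim Galore 0.6.7, STAR, DESeq2 1.34.0 and mm10 were used. The counting program, strand setting and annotation are not given in the sources used here.

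Counts were tested with edgeR 4.0.16 (R 4.3.3; TMM factors, filterByExpr at 10 counts, robust quasi-likelihood F test) over all 14024 genes kept, with Benjamini-Hochberg adjustment and calls at an adjusted p under 0.05. The genes removed held 0.0191% of all counts. Every adjusted p is from edgeR, with n = 4 per group, and the lines on single libraries leave 3 in an arm. CPM used TMM-scaled totals, and levels used merged exon lengths of GENCODE M21 (GRCm38). Shared sequence was searched with blastn on the same strand (at least 75 bases at 98%). The script was tested on simulated data with 13996 genes kept by the filter. There 79% of 1.5-fold and 88.7% of 2-fold changes were recovered and 5.17% of 174 calls were false. In that simulation 100 tested genes were changed 1.5-fold and 97 were changed 2-fold, a smaller share than the 34.1% called here. No drift with library number was simulated.

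Values per library were to be given for called carriers changed at least 1.5-fold, for the called carrier with the highest absolute change in each family and for the most abundant one (18 genes). Those of further carriers were added after they were seen. The carriers, gene lists and alternatives were chosen with earlier results of these data known. The alternatives were RLE, upper-quartile and total scaling, no filter or at least 10 counts in every library, DESeq2 1.42.0, limma-voom (limma 3.58.1), limma on log2 of the deposited normalized signal plus 1, the library number centred per group or as a linear drift, and each library left out. Depth limits precision for genes with few counts. A few genes are not reported here.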

Additional observations from a re-analysis of the deposited data

Results flagged for a closer look

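In 4 of 82 groups of 4 libraries (41 tested carriers in each condition), 1 library stood apart from the other 3 by a gap above Dixon's critical value for 4 values. Chance gives about 1 in 20 such groups, here 4.1 of 82. No 2 of the 4 were in the same library.

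Slc7a1 was highest in control replicate 1, at 132 CPM against 126.0 to 126.2 CPM in the other controls. Its log2 fold change was 0.18 with that library and 0.19 without it. Slc16a1 was lowest in NaCl replicate 8, at 31.2 CPM against 32.9 to 33.1 CPM. The fitted change of Slc16a1 was -0.64 (log2) with and -0.62 without that library. Slc38a6 was lowest in NaCl replicate 5, at 19.3 CPM against 21.1 to 21.3 CPM. It was not called with or without that library (log2 fold changes 0.013 and 0.044). Slc43a2 was highest in NaCl replicate 6, at 9.65 CPM against 7.42 to 7.57 CPM. The fitted change of Slc43a2 was -1.13 (log2) with and -1.23 without it. The 3 called genes kept their call and direction without these libraries.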

How the results depend on the processing

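No paired analysis was possible because the groups share no library number (1 to 4 against 5 to 8). Over the alternatives other than leaving out a library, 8 to 11 carriers were called higher and 8 to 13 lower. Leaving out each library gave 9 to 10 and 11 to 12. For the partner, sensing and metabolism genes, 26 were called, 24 to 34 under the alternatives and 19 to 24 with a library left out. Of the 23 called carriers, 13 kept call and direction in all 18 alternatives. Slc7a12 and Slc16a6 kept theirs in 17 and had no value with at least 10 counts in every library. A further 4 (Slc7a1, Slc7a5, Slc7a7 and Slc43a3) lost the call with the linear drift alone. With the drift, Slc7a5 (0.078) and Slc16a12 (-0.10) turned sign, and the cause was not tested.

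Family medians of the log2 fold change moved by more than the replicate spread in a few settings. Without a filter, which adds untested members, the median was 0.28 in Slc1 and -0.39 in Slc43. With at least 10 counts in every library, which removes members, it was 2.05 in Slc15. With the drift it was 0.23 in Slc6 and -0.22 in Slc38. Leaving out each library gave 0.25 to 0.52 in Slc6 (lowest without control replicate 1), -0.23 to -0.10 in Slc16 (lowest without NaCl replicate 7) and -0.12 to -0.018 in Slc38 (highest without control replicate 4). Slc7a12, Slc15a3, Slc16a5, Slc16a6 and Slc38a4 rest on few counts in at least 1 group, which limits the precision of their fold changes. The most abundant member per kilobase was the same with the longest transcript as length in 9 of 9 families.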
